A study of Mus musculus with 56 samples.

Results

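The genes described here are those through which a tissue senses IgG bound to antigen in immune complexes. They are the mouse IgG receptor genes Fcgr1, Fcgr2b, Fcgr3 and Fcgr4, the shared signalling chain gene Fcer1g, the kinase gene Syk and the neonatal Fc receptor gene Fcgrt. They were taken from the expression table as the rows whose Ensembl identifier maps to these symbols, which gave 7 of 53431 features. All 7 passed the filter on low values, a mean of at least 1 FPKM in any group, where FPKM scales the fragments of a gene to its transcript length in kilobases and to the mapped fragments of the library in mega (M).

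RNA-seq was carried out on homogenised front paws of 56 male DBA/1 mice, 1 library per mouse, in 5 groups. In 4 of the groups, arthritis was induced by immunisation with chicken type II collagen on day 1 and day 21 (collagen-induced arthritis, CIA). From day 21 these mice received intraperitoneal antibody 2 times per week for 5 weeks. The anti-TNF group (n = 13) received clone XT3.11 at 30 mg/kg, the anti-IL-6 group (n = 13) clone MP5-20F3 at 10 mg/kg, and the combination group (n = 13) both clones at 30 and 10 mg/kg. The isotype group (n = 13) received an IgG1 isotype control at 30 mg/kg, and the no CIA group (n = 4) is labelled as having had no treatment. The paws were harvested on day 91, which is later than the last injection. The labels give no age and carry no genetic modification. Every immunised group also received an injected antibody, so immunisation and antibody cannot be told apart in any comparison with no CIA mice.

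Fc receptors bind the constant part of IgG and translate the presence of immune complexes into activation or restraint of myeloid cells. The activating receptors have a ligand-binding chain, encoded by Fcgr1, Fcgr3 or Fcgr4, that sits in the membrane together with the common gamma chain encoded by Fcer1g. Src-family kinases phosphorylate the activation motif (ITAM) of this chain and Syk docks on it, whereas Fcgr2b carries an inhibitory motif (ITIM) that recruits phosphatases. FcRn, made of the Fcgrt product and beta-2 microglobulin, works inside cells, where it returns IgG and albumin to the blood. In collagen-induced arthritis, IgG against collagen forms such complexes in the joint, and mice that lack Fcer1g are known to be protected.

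Promoters of 3 of the genes are shown because their levels moved to different extents in these paws: Fcgr1 and Fcgr4 took up a larger share of the IgG receptor signal in immunised mice than in no CIA mice, and Fcgr2b a similar one. The sequences are 300 bases long, the last 50 of them after the start site, and come from RefSeq on build GRCm38.p6, where all 7 genes were matched. They lie at chr3:96293920-96294219 on the minus strand for Fcgr1, at chr1:171018676-171018975 on the plus strand for Fcgr4 and at chr1:170976022-170976321 on the minus strand for Fcgr2b. Capitals mark matches to any of 3 motifs searched on both strands.
Fcgr1: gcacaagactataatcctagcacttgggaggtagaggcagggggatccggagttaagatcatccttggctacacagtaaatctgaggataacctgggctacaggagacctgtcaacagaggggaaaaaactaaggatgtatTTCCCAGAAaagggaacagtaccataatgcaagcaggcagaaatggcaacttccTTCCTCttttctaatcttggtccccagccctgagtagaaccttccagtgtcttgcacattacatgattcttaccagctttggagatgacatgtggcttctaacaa
Fcgr4: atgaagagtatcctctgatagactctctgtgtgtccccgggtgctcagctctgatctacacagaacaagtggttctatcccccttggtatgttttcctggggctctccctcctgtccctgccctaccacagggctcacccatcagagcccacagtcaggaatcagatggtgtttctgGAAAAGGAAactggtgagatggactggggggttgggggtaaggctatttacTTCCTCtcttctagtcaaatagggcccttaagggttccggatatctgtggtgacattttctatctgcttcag
Fcgr2b: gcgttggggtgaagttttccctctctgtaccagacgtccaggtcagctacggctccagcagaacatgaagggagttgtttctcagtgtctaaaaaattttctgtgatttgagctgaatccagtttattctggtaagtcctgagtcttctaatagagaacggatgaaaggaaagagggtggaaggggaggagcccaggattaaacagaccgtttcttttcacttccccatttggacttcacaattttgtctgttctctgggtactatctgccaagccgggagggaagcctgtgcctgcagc
The first motif, TTCNNNGAA, is the palindromic element that STAT dimers bind, and it was found in Fcgr1 at -109 from the start site. GAGGAA, a core of sites bound by the myeloid factor PU.1, was found at -55 in Fcgr1 and at -22 in Fcgr4, both on the opposite strand, where it reads TTCCTC. GAAANNGAA, the repeat found in interferon-stimulated response elements, was present at -73 in Fcgr4. The Fcgr2b window held none of the 3. Of the other genes, Fcgr3 had GAGGAA at -6 (at -15 in its second listed promoter) and Syk at -9 in its second promoter, whereas Fcer1g and Fcgrt had no match. No matches overlapped. Among 32851 mouse promoters of the same length, 8.30% held TTCNNNGAA, 28.3% held GAGGAA and 8.56% held GAAANNGAA, so these matches are a description of the letters and not evidence of a bound site.

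The IgG receptor genes other than Fcgr1 are neighbours of Fcer1g. On build GRCm38 (GENCODE M21), Fcgr2b (chr1:170958617-170976547, minus strand), Fcgr4 (chr1:171018920-171029761, plus strand), Fcgr3 (chr1:171051174-171064935, minus strand) and Fcer1g (chr1:171229572-171234365, minus strand) lie within 275.7 kb. Fcgr1 is at chr3:96282909-96293969 (minus strand), Fcgrt at chr7:45092990-45103851 (minus strand) and Syk at chr13:52583173-52648792 (plus strand). All are protein-coding, and the values cover whole genes, with exons and UTRs together.

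Fcgr2b and Fcgr3 are close copies in their extracellular part. Their longest identical coding stretch is 129 bases, in coding sequences of 1020 bases for Fcgr2b and 801 bases for Fcgr3, and is shown because reads inside it could be assigned to either gene.
Fcgr2b and Fcgr3: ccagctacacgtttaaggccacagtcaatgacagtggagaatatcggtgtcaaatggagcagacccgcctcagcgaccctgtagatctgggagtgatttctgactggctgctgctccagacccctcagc
Of the 50-base words in Fcgr3 transcripts, 9.58% also occur in another gene, in every case Fcgr2b, and 4.38% of those in Fcgr2b occur elsewhere. The other 5 genes have no such shared words. How the authors counted shared reads is not given in the sources used here, so a small part of the Fcgr2b and Fcgr3 values is uncertain. Fcgr2b also overlaps exons of the antisense gene Gm38204 by 155 bases, and whether counting used strand is not given either.

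The depth behind the values, estimated from the steps of low FPKM values, was 39.8 to 54.55 M fragments per library. No pair of libraries was identical. The libraries that correlated least with the others were anti-IL-6 replicate 13 (mean r = 0.888) and isotype replicate 4 (0.935), against a median of 0.957. The paws contained the tissues that the label implies: skeletal muscle markers summed to between 1458 and 48520 FPKM and markers of cartilage, bone and synovial lining to between 366 and 3718 FPKM. Epidermis markers summed to between 5496 and 33350 FPKM. Markers of cells that carry Fc receptors were also present, with macrophage markers summing to at least 351 FPKM and neutrophil markers to at least 158 FPKM. Mast cell markers summed to between 103 and 390 FPKM and B cell markers to between 1.85 and 161 FPKM. NK cell markers summed to at most 4.11 FPKM and 1 of their 7 genes was at 0 in every library. In such bulk tissue, a larger number of cells of a type and more RNA per cell cannot be told apart.

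All 7 genes had a value above 0 in every library. The order of mean FPKM was the same in all 5 groups: Fcgrt highest, then Fcer1g, Fcgr2b, Fcgr3, Syk, Fcgr1 and Fcgr4. FPKM is a level per length, so the genes can be set side by side on it. Within single libraries the order was almost as fixed. Fcgrt exceeded Fcer1g in 54 of 56 libraries, Fcer1g exceeded Fcgr2b in 52, Fcgr2b exceeded Fcgr3 in 54, Fcgr3 exceeded Syk in 56, Syk exceeded Fcgr1 in 56 and Fcgr1 exceeded Fcgr4 in 55. The neighbours Fcer1g and Fcgr2b, and Fcgr2b and Fcgr3, had ranges over mice that overlapped in each group, although the order held within nearly all single libraries.

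**Figure D1:**
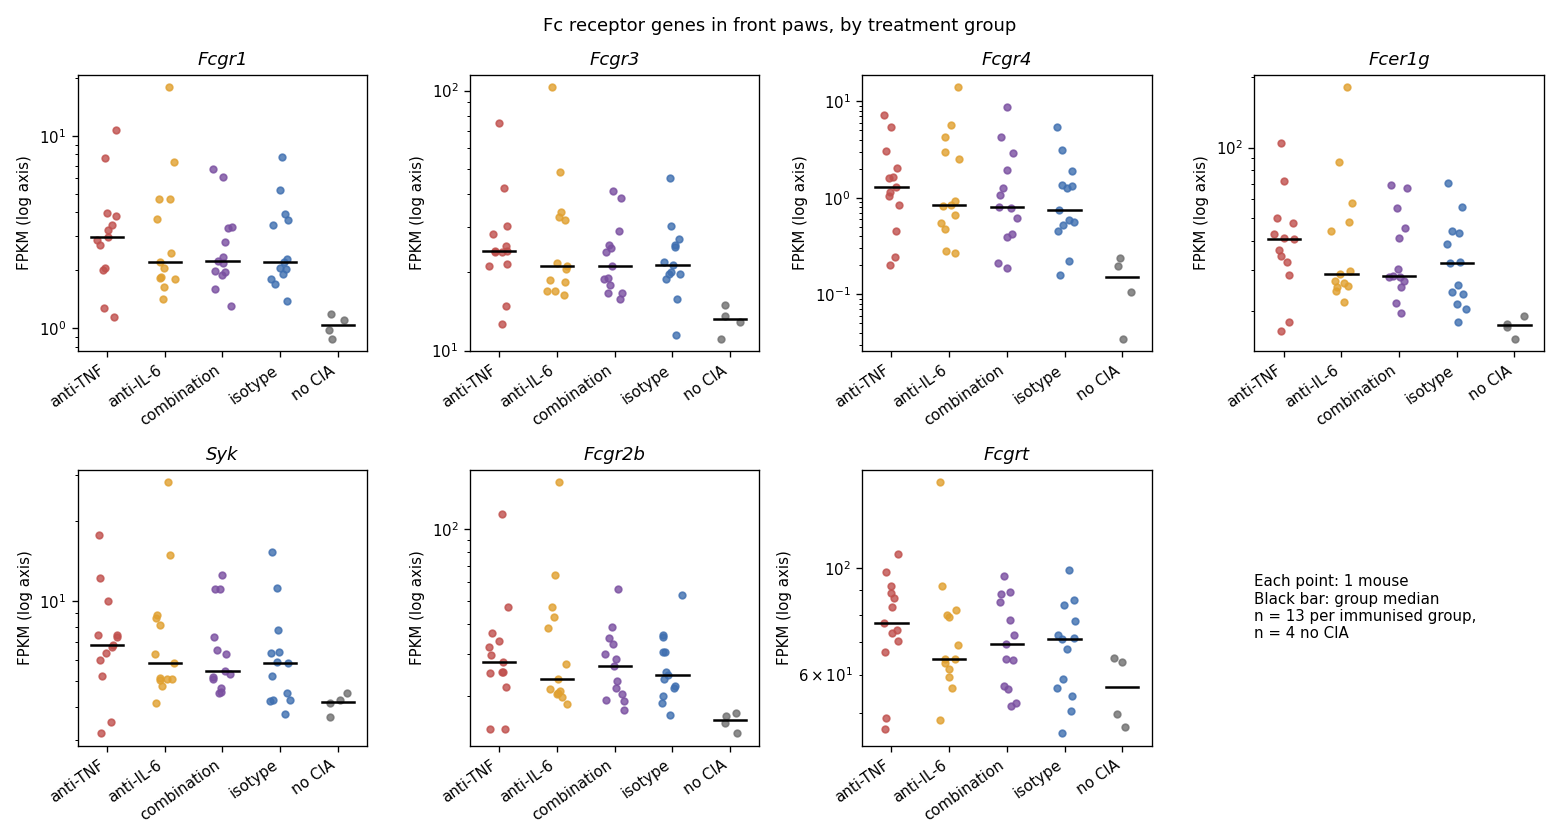
FPKM of each gene (log axis) in the anti-TNF, anti-IL-6, combination, isotype and no CIA groups, with 1 point per mouse and a bar at the group median. The 4 immunised groups overlap each other throughout, and the 4 no CIA mice lie at or near the bottom of every panel except that of Fcgrt.

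The isotype group, which was immunised and given the control antibody in place of anti-TNF or anti-IL-6, was set against no CIA mice. No arthritis score entered this comparison. All 7 genes had a higher mean in isotype paws, from 1.84-fold for Fcgr1 on the log2(FPKM + 1) scale down to 1.20-fold for Fcgrt, but none passed the test. The test was limma across 14700 genes with Benjamini-Hochberg adjustment, by which 0 of 7 members were called, against 0.156% of all genes tested (23 of 14700). At an unadjusted p under 0.05, 3 of 7 members were called higher (Fcgr1, Fcgr3 and Fcer1g), against 16.7% of all genes in either direction. The median difference of the 7 genes was 0.72 (log2), and that of all genes tested was 0.03. A difference above 0 was found for 7 of 7 members and for 55.8% of all genes. Fcgr4 passed the filter on low values only through the immunised groups, and the members vary together between mice. Member counts against no CIA, here and below, are therefore not independent observations and are given as descriptions.

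Among the activating receptors, Fcgr1 encodes the high-affinity receptor CD64 of monocytes and macrophages. Its level in isotype paws ran from 1.39 through a median of 2.22 to 7.72 FPKM, against 0.886, 1.11, 1.20 and 0.980 FPKM in the 4 no CIA paws. The groups did not overlap, which was true of 1 of the 7 members and of 1.59% of all genes. Means were 3.03 ± 1.79 FPKM (SD, n = 13) in isotype and 1.04 ± 0.137 FPKM (SD, n = 4) in no CIA paws, a log2 difference of 0.88 ± 0.36 (SE; 95% confidence interval 0.15 to 1.60; adjusted p = 0.266, limma). The level was also higher than in any no CIA paw in 12 of 13 anti-TNF, 13 of 13 anti-IL-6 and 13 of 13 combination paws.

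Fcgr3 encodes the low-affinity activating receptor of macrophages, neutrophils, mast cells and NK cells. It measured 11.5, 21.4 and 45.9 FPKM at the lowest, median and highest isotype paw, against 12.9, 15.0, 13.5 and 11.1 FPKM in no CIA paws. One isotype paw lay within the no CIA range and 12 lay above it. The mean was 23.2 ± 8.36 FPKM in isotype and 13.1 ± 1.60 FPKM in no CIA paws, a log2 difference of 0.72 ± 0.31 (SE; adjusted p = 0.274, limma).

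Fcgr4 encodes a receptor of intermediate affinity that mouse monocytes, macrophages and neutrophils carry. It was the scarcest member, with 0.157, 0.754 and 5.47 FPKM at the lowest, median and highest isotype paw, against 0.0348, 0.198, 0.240 and 0.106 FPKM in no CIA paws. The no CIA values rest on only about 2, 11, 15 and 6 fragments, so their ratios to other groups are imprecise, and Fcgr4 passed the filter on low values only through the immunised groups. Of the isotype paws, 11 of 13 lay above every no CIA paw. The means were 1.36 ± 1.48 FPKM in isotype and 0.145 ± 0.0922 FPKM in no CIA paws, a 9.40-fold ratio of means. On the log2(FPKM + 1) scale, which compresses low values, the difference was 0.86 ± 0.49 (SE; adjusted p = 0.345, limma).

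Fcer1g, the common gamma chain, is needed for surface expression of the activating receptors and also serves the IgE receptor and several lectin receptors. Isotype paws ranged from 17.9 through 31.9 to 70.8 FPKM, against 17.1, 19.1, 17.6 and 15.2 FPKM in no CIA paws. All but 1 isotype paw were above every no CIA paw. The means of 34.5 ± 15.5 FPKM in isotype and 17.3 ± 1.59 FPKM in no CIA paws differed by 0.85 ± 0.38 log2 units (SE; adjusted p = 0.276, limma).

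Syk, the kinase that carries the signal on from the gamma chain, varied less between the groups. It measured 3.74, 5.83 and 15.3 FPKM at the lowest, median and highest isotype paw, against 4.51, 4.22, 4.11 and 3.64 FPKM in no CIA paws. The groups overlapped, with 8 of 13 isotype paws above every no CIA paw. The mean was 6.52 ± 3.30 FPKM in isotype and 4.12 ± 0.364 FPKM in no CIA paws, a log2 difference of 0.46 ± 0.31 (SE; adjusted p = 0.424, limma).

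Fcgr2b, the inhibitory receptor, had the highest mean FPKM of the 4 IgG receptors. Its level was 16.8, 24.7 and 53.1 FPKM at the lowest, median and highest isotype paw, against 17.1, 15.5, 16.5 and 14.0 FPKM in no CIA paws. A single isotype paw fell inside the no CIA range. Means of 27.6 ± 9.77 FPKM in isotype and 15.8 ± 1.33 FPKM in no CIA paws gave a log2 difference of 0.71 ± 0.36 (SE; adjusted p = 0.305, limma), close in size to that of Fcgr3.

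Fcgrt, the FcRn heavy chain, is not confined to myeloid cells, being well known in endothelium and epithelia. It ranged from 45.3 through 71.03 to 98.9 FPKM in isotype paws, against 49.7, 65.1, 63.7 and 46.6 FPKM in no CIA paws. The ranges overlapped, with 8 of 13 isotype paws above every no CIA paw. The mean of 68.8 ± 15.5 FPKM in isotype and 56.3 ± 9.48 FPKM in no CIA paws gave the smallest log2 difference of the 7 genes, 0.27 ± 0.19 (SE; adjusted p = 0.453, limma).

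The treated groups were set against the same no CIA mice, which these comparisons therefore share. In anti-TNF paws the 7 log2 differences ran from 0.44 for Fcgrt to 1.15 for Fcgr4, with adjusted p of 0.149 to 0.246 (limma). In anti-IL-6 paws they ran from 0.36 for Fcgrt to 1.21 for Fcgr4, with adjusted p of 0.110 to 0.205. In combination paws they ran from 0.32 for Fcgrt to 0.99 for Fcgr4, with adjusted p of 0.470 to 0.517. No member was called in any of these, against 0.551%, 0.558% and 0.156% of all genes for anti-TNF, anti-IL-6 and combination. At an unadjusted p under 0.05, 7, 6 and 5 of the 7 members were called in anti-TNF, anti-IL-6 and combination, against 19.1%, 28.1% and 10.5% of all genes.

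The mean of the 4 immunised groups, which uses all 52 immunised mice, exceeded no CIA by 0.95 for Fcgr1, 0.84 for Fcgr3, 1.05 for Fcgr4, 1.01 for Fcer1g, 0.59 for Syk, 0.83 for Fcgr2b and 0.35 for Fcgrt (log2). Adjusted p was 0.149 to 0.245 (limma), so again 0 of 7 were called, against 0.633% of all genes. At an unadjusted p under 0.05, 6 of 7 were, all but Fcgrt, against 21% of all genes. Counted mouse by mouse, Fcgr1 was above the highest no CIA paw in 51 of 52 immunised paws, Fcgr2b, Fcgr3 and Fcer1g in 49 each, Fcgr4 in 47, Syk in 43 and Fcgrt in 32. How many of all genes reached such partial counts, here or in the single groups above, was not counted. No member separated all immunised from all no CIA paws, as 0.245% of all genes did. The groups differed here. In anti-IL-6 all libraries lay above all no CIA libraries for 5 of 7 members, the 4 IgG receptors and Fcer1g (against 2.7% of all genes). In combination this held for 4, the same without Fcgr4 (against 1.46%), and in anti-TNF for 0 (against 0.714%). The anti-TNF paws within or below the no CIA range were few, at most 2 for each gene.

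Whether the antibodies changed these genes was asked by setting each treated group against isotype paws. No member was called in any of the 3 comparisons. Background calls were 0% of all genes for anti-TNF, 0.952% for anti-IL-6 and 0% for combination. At an unadjusted p under 0.05 the members' count was also 0 in each, against 5.47%, 12.8% and 5.78% of all genes. These results do not show that levels were alike: the intervals leave room for moderate changes either way.

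For the activating receptors, Fcgr1 averaged 3.69 ± 2.66, 4.11 ± 4.46 and 2.91 ± 1.67 FPKM in anti-TNF, anti-IL-6 and combination paws, against 3.03 ± 1.79 FPKM in isotype paws. The log2 differences were 0.16 (95% confidence interval -0.34 to 0.65), 0.16 (-0.34 to 0.65) and -0.03 (-0.53 to 0.46). The medians of 2.97, 2.22 and 2.23 FPKM in the treated groups, against 2.22 FPKM in isotype paws, lay closer together than the means. Fcgr4 averaged 2.01 ± 2.07, 2.63 ± 3.796 and 1.82 ± 2.40 FPKM in the same treated groups, against 1.36 ± 1.48 FPKM in isotype paws, and its intervals were the widest, from -0.38 to 0.96, from -0.33 to 1.02 and from -0.54 to 0.80. Fcgr3 averaged 28.2 ± 15.7, 30.8 ± 23.6 and 23.7 ± 8.18 FPKM, against 23.2 ± 8.36 FPKM in isotype paws. Its highest paws reached 74.9, 103 and 41.1 FPKM in the treated groups and 45.9 FPKM in isotype.

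Fcer1g averaged 43.4 ± 23.1, 48.2 ± 44.0 and 37.3 ± 16.9 FPKM in anti-TNF, anti-IL-6 and combination paws, against 34.5 ± 15.5 FPKM in isotype paws, with log2 differences of 0.28 (-0.25 to 0.80), 0.27 (-0.25 to 0.79) and 0.11 (-0.42 to 0.63). The medians of 40.7, 28.7 and 28.2 FPKM, against 31.9 FPKM in isotype paws, put anti-IL-6 and combination below isotype where the means put them above. Syk had means of 7.68 ± 3.86, 8.47 ± 6.57 and 6.89 ± 2.81 FPKM, against 6.52 ± 3.30 FPKM in isotype paws. Its medians were 6.81, 5.82 and 5.43 FPKM, against 5.83 FPKM, so combination lay below isotype and anti-IL-6 about level with it. Fcgr2b averaged 34.6 ± 25.8, 40.2 ± 37.8 and 28.5 ± 10.7 FPKM, against 27.6 ± 9.77 FPKM in isotype paws. Fcgrt had the tightest intervals. Its means were 77.8 ± 17.7, 74.7 ± 25.8 and 71.1 ± 15.1 FPKM, against 68.8 ± 15.5 FPKM in isotype paws, with log2 differences of 0.17 (-0.093 to 0.44), 0.09 (-0.17 to 0.36) and 0.05 (-0.21 to 0.32).

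Between the treated groups, all 7 genes had lower fitted values in combination than in anti-TNF paws (log2 differences -0.19 to -0.10) and than in anti-IL-6 paws (-0.24 to -0.04), again with 0 of 7 called. Background calls were 0% of all genes for combination against anti-TNF and 0.102% for combination against anti-IL-6. Anti-TNF minus anti-IL-6 differences ran from -0.10 to 0.08, with 0 of 7 members and 0% of all genes called. At an unadjusted p under 0.05 the members' count was 0 in these 3 comparisons, against 1.09%, 11.4% and 4.68% of all genes.

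**Figure D2:**
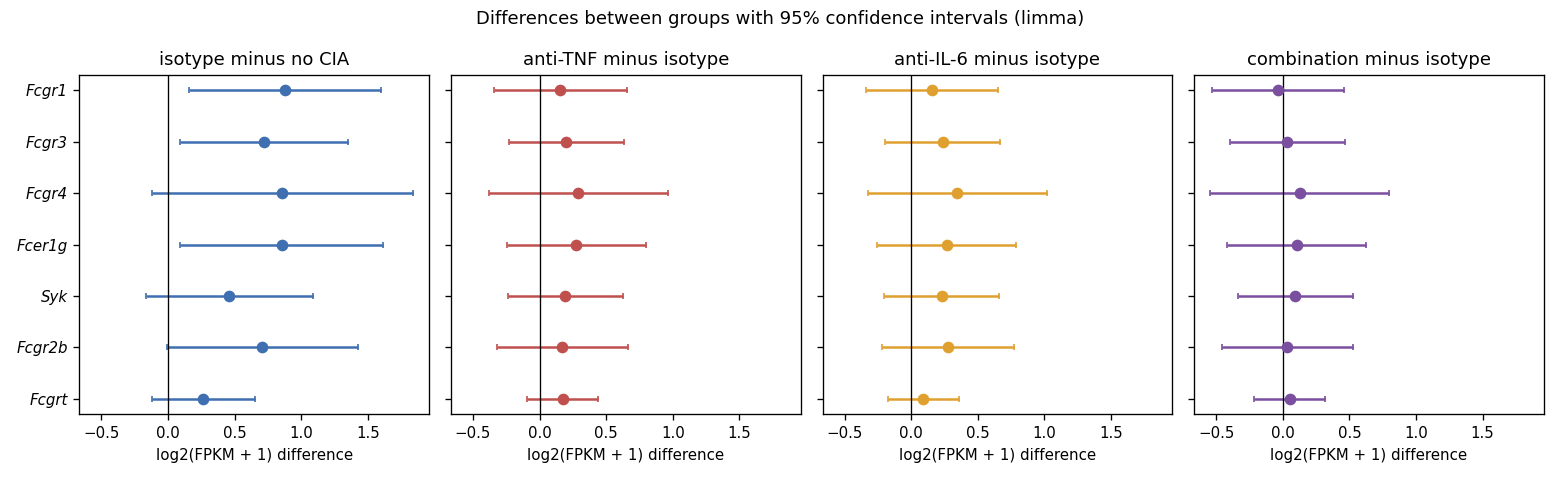
Differences in log2(FPKM + 1) with 95% confidence intervals from limma, for isotype minus no CIA and for anti-TNF, anti-IL-6 and combination minus isotype. The isotype minus no CIA estimates lie between 0.27 and 0.88, and every interval of a treated group against isotype includes 0.

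The labels carry index numbers that run from 39 to 96. They were cut here into 5 consecutive stretches, called index runs, which the labels do not name as batches. The mouse numbers drop back at the start of each later stretch. The runs are not spread evenly over the groups. All 4 no CIA libraries lie in 1 run together with isotype replicates 4 and 7 only. Those 2 isotype libraries were high for these genes: Fcgr1 measured 7.72 and 5.24 FPKM, and the log2 difference from no CIA within the run was 1.86 for Fcgr1, 1.45 for Fcgr3, 2.18 for Fcgr4, 1.81 for Fcer1g, 1.46 for Syk, 1.42 for Fcgr2b and 0.59 for Fcgrt. The 11 isotype libraries of the other runs differed from no CIA by 0.70, 0.59, 0.62, 0.68, 0.28, 0.58 and 0.21 for the same genes. With index run as a covariate, limma called 5 of the 7 members (Fcgr1, Fcgr3, Fcgr4, Fcer1g and Syk, adjusted p 0.0239 to 0.0304), but 2744 of the 14700 genes tested were then called. That fit rests on isotype replicates 4 and 7 alone for the link between the no CIA libraries and the rest. Isotype replicate 4 is also the library that correlated second least with the others, and without it the Fcgr1 difference in the fit of all groups was 0.78.

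Treated against isotype could be compared inside several runs. For anti-TNF, all 7 members were above isotype in each of the 3 runs holding both groups, with median log2 differences of 0.58 (2 against 1 library), 0.37 (5 against 4) and 0.24 (6 against 5). For anti-IL-6, 1 of 7 members was above isotype in the run with 4 against 1 library (median -0.06), and all 7 were in the runs with 8 against 1 (0.46) and 1 against 5 (0.74). For combination, 6, 7, 6 and 1 of 7 members were above isotype in its 4 runs, with medians of 0.08 (4 against 1), 0.23 (4 against 4), 0.14 (4 against 1) and -0.05 (1 against 5). The members move together in a library, so such counts are close to a single observation per run.

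Single mice differed far more than groups did. Anti-IL-6 replicate 13 had the highest level of all 56 libraries for every one of the 7 genes, with 17.8 FPKM of Fcgr1, 103 FPKM of Fcgr3, 13.9 FPKM of Fcgr4, 181 FPKM of Fcer1g, 28.1 FPKM of Syk, 157 FPKM of Fcgr2b and 151 FPKM of Fcgrt. Anti-TNF replicate 4 had rank 2 for 6 genes and rank 3 for Fcgr4. Isotype replicate 4, anti-TNF replicate 8 and combination replicate 11 were in the top 10 for all 7 genes. High libraries thus came from all 4 immunised groups. At the other end, anti-TNF replicates 7 and 13 and no CIA replicate 4 were in the bottom 10 for all 7. Isotype replicates 5 and 6 were there for 6 of 7, as were the other 3 no CIA replicates. Over the 52 immunised mice the highest level was 15.6 times the lowest for Fcgr1, 8.99 for Fcgr3, 88.8 for Fcgr4, 11.0 for Fcer1g, 8.87 for Syk, 10.7 for Fcgr2b and 3.33 for Fcgrt.

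**Figure D3:**
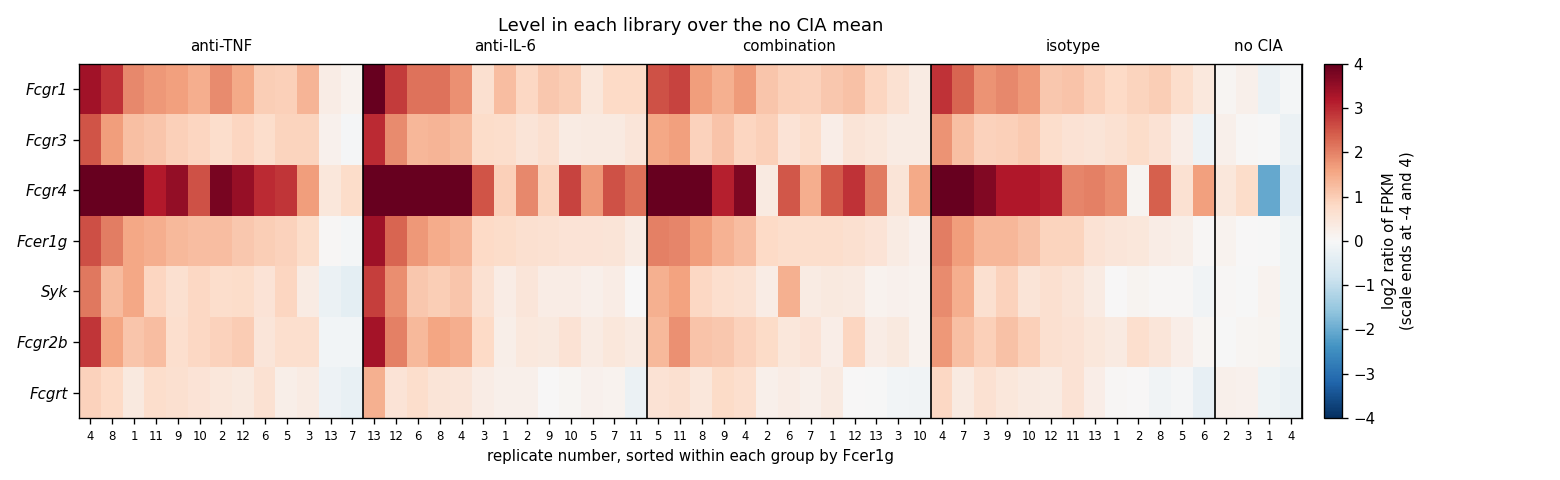
Log2 ratio of FPKM in each library to the no CIA mean, with genes in rows and libraries in columns, grouped by treatment and sorted by Fcer1g within each group (the colour scale ends at -4 and 4). Shades differ between rows: the immunised mean was 13.5 times the no CIA mean for Fcgr4 and 1.30 times for Fcgrt. Anti-IL-6 replicate 13 and anti-TNF replicate 4 are the darkest of their groups. Syk in combination replicate 6 stands higher within its row than the other genes of that library do within theirs.

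Combination replicate 6 departed from the common pattern. It ranked ninth for Syk but between 29 and 37 for the other 6 genes, and its Syk to Fcer1g ratio of 0.393 was the highest of all libraries. No other immunised library was above the no CIA maximum of 0.263.

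Ratios taken inside a library do not depend on its scaling and show where the members did not move in step. These ratios, here and in the next 2 paragraphs, were chosen with the levels known and are given as descriptions. How many other gene pairs separate the groups in the same way was not counted. Fcgrt over Fcer1g was 2.06 ± 0.499 (range 0.834 to 2.81, SD, n = 52) in immunised paws and 3.25 ± 0.327 (range 2.90 to 3.62, SD, n = 4) in no CIA paws, so all 52 immunised paws lay below the lowest no CIA paw. Syk over Fcer1g was 0.188 ± 0.0381 in immunised and 0.239 ± 0.0176 in no CIA paws, with 48 of 52 below the lowest no CIA paw. The gamma chain therefore stood higher against both its kinase and FcRn in immunised paws.

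The inhibitory to activating balance split by receptor. Fcgr1 over Fcgr2b was 0.101 ± 0.0219 in immunised and 0.0664 ± 0.00970 in no CIA paws, with 50 of 52 above the highest no CIA paw. Fcgr4 over Fcgr2b was 0.0477 ± 0.0328 in immunised and 0.00923 ± 0.00563 in no CIA paws, with 46 of 52 above the highest. The no CIA Fcgr4 values behind this ratio and the share below rest on about 2, 11, 15 and 6 fragments, so both are imprecise. Fcgr3 over Fcgr2b was 0.845 ± 0.106 in immunised and 0.833 ± 0.0922 in no CIA paws, and the groups overlapped throughout. Because Fcgr3 makes up most of the activating signal, the sum of the 3 activating receptors over Fcgr2b was 0.994 ± 0.111 in immunised and 0.908 ± 0.102 in no CIA paws, with 15 of 52 above the highest no CIA paw.

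As shares of the summed FPKM of the 4 IgG receptors, Fcgr2b made up 50.3% in immunised and 52.5% in no CIA paws, and Fcgr3 42.3% in immunised and 43.5% in no CIA paws. Fcgr1 made up 5.04% in immunised and 3.47% in no CIA paws, and Fcgr4 2.39% in immunised and 0.476% in no CIA paws. Among the 4 immunised groups the mean Fcgr1 to Fcgr2b ratio stayed between 0.0964 and 0.105, and the mean Fcgrt to Fcer1g ratio between 1.96 and 2.17, less than 1 SD apart.

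**Figure D4:**
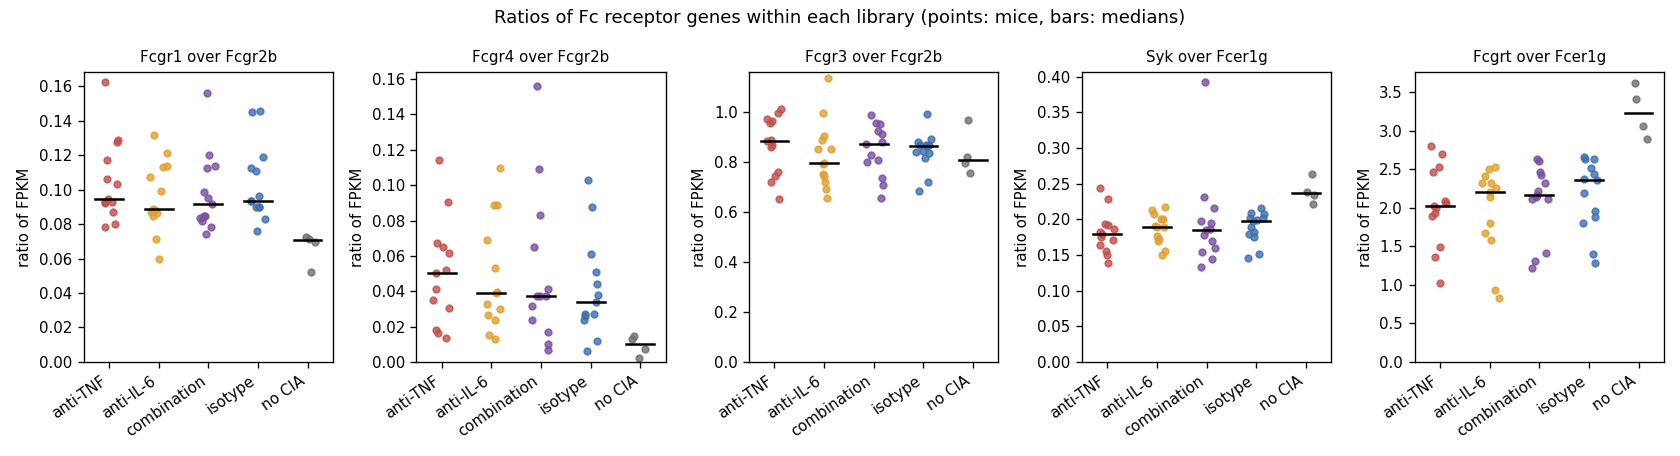
Ratios of FPKM within each library by treatment group, with 1 point per mouse and a bar at the group median. Fcgrt over Fcer1g is below 2.82 in all 52 immunised paws and at least 2.90 in the 4 no CIA paws, and Fcgr3 over Fcgr2b overlaps between all groups.

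Across the 52 immunised libraries the members varied together. Pearson's r of log2(FPKM + 1) between the 21 pairs was 0.790 to 0.967 with a median of 0.911. The permutation p was 1e-05 for each, the smallest that 100000 resamples can give, and 1e-05 after Benjamini-Hochberg adjustment over the 21 pairs. It tests against independence only. Over all 56 libraries each member had r above 0.9 with 74 to 374 genes, so these p-values do not set the members apart from other genes. The closest pair was Fcgr1 and Fcer1g (r = 0.967, Spearman's rho = 0.938), and Fcgr2b and Fcgr3 followed with r = 0.966. The 15 pairs without Fcgrt had r of 0.886 to 0.967 and rho of 0.789 to 0.938. The 6 pairs with Fcgrt had r of 0.790 to 0.905 and rho of 0.807 to 0.917, and the lowest was Fcgr4 with Fcgrt.

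The correlations did not rest on the extreme libraries. Without the 2 farthest from the median on the x axis, r was 0.848 to 0.951 for the pairs without Fcgrt and 0.746 to 0.871 for those with it. Within single treatment groups it was 0.713 to 0.989 and 0.660 to 0.943, and within single index runs 0.782 to 0.992 and 0.661 to 0.940, for pairs without and with Fcgrt.

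The members also moved with marker sums of cell types. Macrophage marker sums ran from 351 through a median of 923 to 2157 FPKM in anti-TNF, from 489 through 687 to 2629 in anti-IL-6, from 412 through 671 to 1316 in combination and from 397 through 678 to 1656 in isotype paws, against 366, 409 and 437 FPKM at the lowest, median and highest no CIA paw. Neutrophil marker sums had medians of 567, 605, 390 and 473 FPKM in anti-TNF, anti-IL-6, combination and isotype paws, against 228 FPKM in no CIA paws. None of the 15 macrophage and 12 neutrophil markers was called in isotype against no CIA, and 14 and 11 of them had a difference above 0.

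Over the 52 immunised libraries a macrophage score, the mean log2(FPKM + 1) of the 15 markers, correlated with the members at r = 0.889 (Fcgrt) to 0.978 (Fcer1g), and a neutrophil score at r = 0.721 (Fcgrt) to 0.875 (Syk). An endothelial score correlated at 0.611 (Fcgr3) to 0.781 (Fcgrt) and a muscle score at -0.593 (Fcgr2b) to -0.489 (Syk). Spearman's rho ran from 0.889 to 0.967, from 0.689 to 0.859, from 0.647 to 0.833 and from -0.667 to -0.550 for the 4 scores. Without the 2 libraries farthest from the median score, r was 0.852 to 0.969, 0.698 to 0.857, 0.591 to 0.768 and -0.599 to -0.473. Within single index runs it was 0.816 to 0.987, 0.427 to 0.923, 0.293 to 0.918 and -0.849 to -0.209. All 28 of these relations, chosen after the data were seen, had a permutation p of at most 0.00026 and an adjusted p of at most 0.00026. With the macrophage score as a covariate, the isotype minus no CIA differences of the 7 genes lay between -0.37 and -0.05 (limma), none called. They lay between -0.17 and 0.21 with the neutrophil score and between 0.03 and 0.44 with muscle and epidermis scores, again with none called.

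The genes whose pattern over all 56 libraries was most like that of each member, by Pearson's r on log2(FPKM + 1), were mostly leukocyte genes. For Fcgr1 they were Fcer1g (0.971), the scavenger receptor gene Msr1 (0.966) and the inhibitory receptor gene Pirb (0.965). For Fcgr3 they were Pirb (0.977), the nucleotide receptor gene P2ry6 (0.968) and Fcgr2b (0.968). For Fcgr4 they were Sirpb1c (0.959), Mefv (0.956), which encodes pyrin, and Lst1 (0.953).

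Fcer1g was close to Cyth4 (0.979) and the tyrosine kinase gene Fes (0.976). Syk was closest to Akna (0.967), Arhgap45 (0.967) and Themis2 (0.965). Fcgr2b was closest to the lectin receptor gene Clec4a3 (0.974), the protease gene Ctsc (0.969) and Ms4a6d (0.969). Fcgrt stood apart, with the ferritin gene Ftl1 (0.956), Snx8 (0.944) and Cyba (0.943) as its closest genes. It had r above 0.9 with 74 genes, whereas the other members had 146 to 374 such genes. Depth, tissue content and group are shared by all these values, and they are descriptions.

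Genes around the receptors were described from gene lists in isotype against no CIA paws. All of the lists were chosen with earlier results of these data known, so their counts beside all genes are descriptions. Of 23 tested Src-family kinase and activating signal chain genes, 0 were called and 23 had a difference above 0, with a median of 0.31 (log2), against 0.03 for all genes. They included Malt1, a paracaspase (log2 difference 0.27), and the tyrosine kinase gene Btk (0.63), with adjusted p of 0.267 and 0.268 (limma). Of 11 inhibitory phosphatase and adaptor genes, 0 were called and 10 were above 0 (median 0.29). They included Inpp5d, which encodes the phosphatase SHIP recruited by Fcgr2b, at 5.49 ± 2.50 FPKM in isotype and 2.71 ± 0.256 FPKM in no CIA paws (log2 difference 0.73, adjusted p = 0.276). Cblb differed by 0.29 and Ptpn22 by 0.52 (adjusted p = 0.216 and 0.266).

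Other receptor families had differences of the size seen for the Fc receptors. The 11 tested ITIM-bearing myeloid receptor genes had a median of 0.68, with 0 called and 11 above 0, among them Clec4a2 (1.10), Clec12a (1.12) and Pirb (0.78), with adjusted p of 0.261 to 0.266 (limma). The 12 tested genes of other receptors that use Fcer1g, Tyrobp or a related motif had a median of 0.78, with 0 called and 12 above 0. The adaptor gene Tyrobp measured 71.1 ± 43.9 FPKM in isotype and 27.9 ± 2.70 FPKM in no CIA paws (log2 difference 1.13, adjusted p = 0.268). The lectin receptor gene Clec4n differed by 1.45 and Cd300lb by 0.74 (adjusted p = 0.280 and 0.271).

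The 6 NADPH oxidase genes, which make the oxidative burst that Fc receptors trigger, had a median of 0.71, with 0 called. At an unadjusted p under 0.05, 6 of 6 were higher, against 11.9% of all genes. Rac2 differed by 1.07, Cybb by 0.56 and Ncf1 by 0.63 (log2, adjusted p 0.266 to 0.281, limma). The complement receptor genes C3ar1 and C5ar1 differed by 0.55 and 0.38 (adjusted p = 0.318 and 0.539). Of 8 tested genes for cytokines and factors known to regulate IgG receptors, 0 were called and 7 were above 0 (median 0.38). Spi1, which encodes PU.1, differed by 1.02 (adjusted p = 0.259), Stat3 by 0.32 and Cebpb by 0.29 (adjusted p = 0.317 and 0.307).

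The ligands were variable. Of 11 tested immunoglobulin constant genes, 0 were called and 9 were above 0 (median 0.25). Ighg1 measured 3.41 ± 4.67 FPKM in isotype and 0.784 ± 0.131 FPKM in no CIA paws, a spread larger than the mean (log2 difference 0.91, limma adjusted p = 0.503). Ighg2b and Ighg2c differed by 0.53 and 0.42 (adjusted p = 0.60 and 0.55). Among 6 tested Fc receptors of other classes 0 were called and 4 were above 0 (median 0.33, lowest -0.26 for the low-affinity IgE receptor gene Fcer2a). The differences were 0.73 for Fcrls, 0.38 for Ms4a2, the beta chain of the high-affinity IgE receptor, and 0.40 for Trim21, the cytosolic antibody receptor. Trim21 had an adjusted p of 0.0578 in this comparison and rose in the mean of the 4 immunised groups (log2 difference 0.37, adjusted p = 0.0253). That call was lost without any 1 of the 4 no CIA libraries.

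B2m, the light chain that FcRn shares with class I molecules, was the exception among the partners of the 7 genes. It rose to 535 ± 142 FPKM in isotype paws, against 257 ± 32.9 FPKM in no CIA paws, a log2 difference of 1.02 ± 0.22 (SE; adjusted p = 0.0214, limma). Its heavy chain partner Fcgrt differed by 0.27 in the same paws. The call for B2m was lost without no CIA replicate 1, 2 or 4 (adjusted p up to 0.233) and held in the other 14 fits that left out 1 library. The remaining 7 genes of FcRn partners and recycling were not called. Albumin (Alb), which FcRn also carries, averaged 0.197 ± 0.164 FPKM in isotype and 6.11 ± 5.71 FPKM in no CIA paws (log2 difference -2.16, adjusted p = 0.148), and Rab4a differed by -0.30 (adjusted p = 0.272).

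Interferon-induced genes, a class to which Fcgr1 and B2m are known to belong, held most of the calls among the lists. Of 15 genes 6 rose in isotype paws and 0 fell (limma), against 0.156% of all genes called in either direction. Higher at an unadjusted p under 0.05 were 13 of the 15, against 11.9% of all genes. The list was chosen with earlier results of these data known, so these counts describe it and do not test it. Usp18 averaged 3.82 ± 1.36 FPKM in isotype and 1.47 ± 0.359 FPKM in no CIA paws (log2 difference 0.94, adjusted p = 0.00534), and Gbp3 differed by 1.18 (adjusted p = 0.00534). Isg15 differed by 1.55, Ifit1 by 1.04 and Ifit3 by 1.04 (adjusted p = 0.0157, 0.0273 and 0.0345). The median of the list was 0.82. Whether the Fcgr1 difference was related to interferon was not tested. Without no CIA replicate 4 none of these 5 calls held, and each of Isg15, Ifit1 and Ifit3 was also lost without no CIA replicate 1 or 2. Ifit1 and Ifit3 were further lost without no CIA replicate 3 or isotype replicate 9, and Ifit3 without isotype replicate 3 or 7. In the 3 comparisons of a treated group with isotype, no gene of any list was called.

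**Figure D5:**
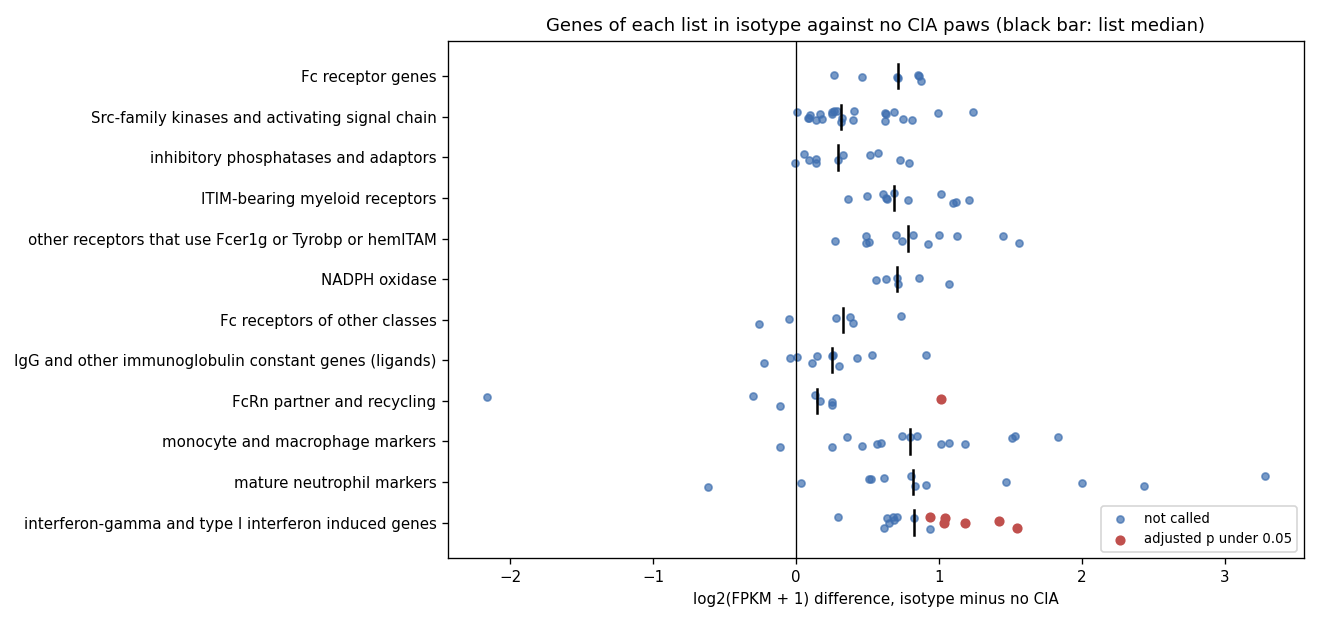
Log2(FPKM + 1) difference, isotype minus no CIA, for each tested gene of each list, with the list median as a black bar and called genes in red. The red points are B2m and 6 interferon-induced genes, and the 7 Fc receptor genes lie between 0.27 and 0.88.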

How the data were processed

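RNA-seq of front paws from 56 mice was analysed from the deposited table of 1 column per library. The authors' values are FPKM, a unit read from the values since no header names it, which the deposited file gives for 53431 features. The labels' protocols name the Qiagen RNeasy kit, the TruSeq Stranded mRNA kit and paired-end sequencing on a NovaSeq instrument, and DESeq2, with no version, is the tool of the authors listed in the submitters' processing notes. Which aligner, build and annotation they used, and whether strand was used, is not given in the sources used here.

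Groups came from the treatment labels. Genes were tested on log2(FPKM + 1) with limma 3.58.1 (R 4.3.3; prior trended and robust), a scale that understates changes of low genes. All 56 libraries entered 1 fit with 51 residual degrees of freedom. Genes with a mean of at least 1 FPKM in any group were tested (14700), p-values were two-sided and Benjamini-Hochberg adjusted over all of them, and the threshold was 0.05. The fit was checked on simulated data. Correlations used permutation tests with 100000 resamples (10000 in the alternatives). The other steps ran in Python 3.11.15 (pandas 2.3.3, numpy 2.4.6, matplotlib 3.10.9, scipy 1.17.1). Annotation was GENCODE M21, which 51027 of 52244 Ensembl identifiers matched with their version. Depth was estimated from single-exon genes, and whole counts could not be recovered for nearly all genes, so no count test was run.

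The members and gene lists were chosen with earlier results of these data known. Named list genes are the 3 with the smallest unadjusted p in isotype against no CIA of each pathway list, plus called members up to 5; some genes that these rules or the likeness ranking name are not reported here. The labels do not say whether mice shared cages or litters, and p-values measure the spread between these mice. Alternatives covered the pseudocount, filter, scaling, groups in the fit, index run, tissue and cell scores as covariates, and leaving out libraries.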

Additional observations from a re-analysis of the deposited data

Results flagged for a closer look

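Of 18 no CIA values or ratios put to a test for a sample far from the others, 1 was singled out, and chance alone does this to about 1 group in 20. The Fcgr1 to Fcgr2b ratio in no CIA replicate 1 was 0.0520, whereas the other 3 no CIA paws lay between 0.0699 and 0.0723. The gap took up 0.879 of the group's range, above Dixon's critical value for 4 samples.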

How the results depend on the processing

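The count of called members stayed at 0 (0 to 0) in each fit that left out 1 library, of which there were 17 or 26 for a pair of groups and 56 for the immunised mean. Under the other settings, 12 for a pair of groups and 11 for the immunised mean, it stayed at 0 except with index run as a covariate. That fit called 5 members in isotype, 6 in anti-TNF and 5 in anti-IL-6 against no CIA, and 6 in the mean of the immunised groups. Of the 14700 genes tested, it called 2744 in isotype against no CIA and 2879 in the immunised mean. The counts over all genes for anti-TNF and anti-IL-6 are not reported here. Of 1470 member differences recomputed for the treated groups against isotype and for isotype and the immunised mean against no CIA, 46 changed sign and 11 were called, all 11 with index run.

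With the macrophage score as a covariate, isotype minus no CIA was -0.054 for Fcgr1, -0.21 for Fcgr2b, -0.079 for Fcgr3, -0.37 for Fcgr4, -0.15 for Fcer1g, -0.19 for Fcgrt and -0.34 for Syk, and the immunised mean minus no CIA was -0.075, -0.18, -0.037, -0.30, -0.083, -0.16 and -0.29 in that order. In the same fit anti-TNF minus isotype was -0.044 for Fcgr1 and -0.026 for Fcgr2b, and anti-IL-6 minus isotype was -0.026 for Fcgr1. With the neutrophil score, isotype minus no CIA was -0.11 for Fcgr4, -0.050 for Fcgrt and -0.17 for Syk, the immunised mean minus no CIA was -0.034, -0.0085 and -0.12 for these, and anti-IL-6 minus isotype was -0.013 for Fcgr1. With muscle and epidermis scores, anti-IL-6 minus isotype was -0.12 for Fcgr1, -0.0042 for Fcgr2b, -0.016 for Fcgr4, -0.035 for Fcer1g and -0.058 for Fcgrt, and combination minus isotype was 0.0045 for Fcgr1. For Fcgr1, combination minus isotype was also 0.11 with index run and 0.068 without the 2 least correlated libraries. The cause of each change was not tested.

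Leaving out 1 library gave ranges that crossed 0 for anti-IL-6 minus isotype in Fcgr1 (-0.025 to 0.26) and for combination minus isotype in Fcgr1 (-0.12 to 0.068), Fcgr2b (-0.052 to 0.12), Fcgr3 (-0.039 to 0.12) and Fcgr4 (-0.048 to 0.26). Over all genes, 23 were called in isotype against no CIA, with 3 to 2744 under other settings and 0 (without no CIA replicate 4) to 59 (without isotype replicate 5) leaving out 1 library. Anti-IL-6 against isotype called 140 genes, with 20 to 470 and 50 to 220, and the immunised mean 93, with 8 to 2879 and 8 to 129. B2m in isotype against no CIA was 0.99 (adjusted p = 0.0517) at a pseudocount of 10, 0.51 (0.0856) with the macrophage score and 0.62 (0.0906) with the neutrophil score (limma). The 5 named interferon-induced genes also lost their calls at a pseudocount of 10 and with either score, Isg15, Ifit1 and Ifit3 also with only the compared groups in the fit, and Trim21 lost its call in the immunised mean at a pseudocount of 10, with either score and with muscle and epidermis scores. Past the threshold were 21 of 21 member correlations in every alternative, again in a test against independence only.

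No paired analysis was possible because the mouse numbers in the labels are unique to a mouse and replicate numbers only name samples. Precision was limited by 4 no CIA mice and, for Fcgr4, by low counts.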
